A study of Rattus norvegicus with 84 samples.

Results

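The transcripts followed were those of 9 genes, Ppp1r1b, Pde10a, Rgs9, Drd1, Tac1, Pdyn, Drd2, Penk and Adora2a. They were chosen by name as transcripts of striatal medium spiny neurons, with earlier results of these data known. Every one has a row of its own among the 26637 genes of the mRNA count table, of which 18782 are annotated. Medium spiny neurons are the GABAergic projection neurons of the striatum and make up most of its neurons. Those of the direct pathway carry the dopamine receptor Drd1 and the peptides of Tac1 and Pdyn, and those of the indirect pathway carry Drd2, the adenosine receptor Adora2a and the peptide of Penk. Dopamine and adenosine act in both through cAMP, and Ppp1r1b, Pde10a and Rgs9 belong to that signalling in both types.

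RNA was sequenced from extracellular vesicles (EVs), the membrane particles that cells release, of brain and plasma of 21 rats in 7 groups of 3 rats. All were adult male Sprague-Dawley rats. The healthy group had no stroke, and the control and hNSCs groups had a transient occlusion of the right middle cerebral artery followed by saline (control) or human neural stem cells (hNSCs) into the carotid artery 3 days later. Animals were taken at 4, 10 and 31 days poststroke. Brain-derived EVs came from a small piece of the ipsilateral hemisphere, and neither the region of that piece nor the side taken in healthy rats is stated in the sources used here. The replicates were separate rats.

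In brain, 569136 to 15587216 counts per library fell on annotated genes, which was 3.18% to 51.9% of all counts, with the highest shares at 31 days. Plasma libraries held 6357675 to 31028559 annotated counts. Counts were divided by the annotated total of their library after TMM scaling and given as CPM, except for the pooled levels of brain against plasma. Levels of different genes were compared only in FPKM, the deposited value per length. All 10 general neuron, 8 astrocyte and 8 oligodendrocyte markers had counts in every brain group. The summed level of 10 general neuron markers ranged from 2065 to 11995 CPM, against 0 to 52.4 CPM in plasma.

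All 9 genes had counts in brain-derived EVs. Ppp1r1b, the dopamine- and cAMP-regulated phosphoprotein that inhibits protein phosphatase-1, was found in 21 of 21 brain libraries and was the highest of the 9 by FPKM in 21 of 21. Its median was 5.48 FPKM, with a range of 1.27 to 27.8 FPKM. Pde10a, which degrades cAMP and cGMP, followed with a median of 0.643 FPKM, and Rgs9, which shortens the signal of inhibitory G proteins, with 0.582 FPKM. These neighbours could not be separated, since Pde10a was above Rgs9 in 11 of 21 libraries. Penk came next with 0.35 FPKM and lay below Rgs9 in 16 of 21 libraries. The other 5 genes were low, at medians of 0.112 FPKM for Pdyn, 0.109 for Tac1, 0.0752 for Drd1, 0.0336 for Adora2a and 0.0323 for Drd2. Tac1 was above Drd1 in 8 libraries only, and Adora2a was above Drd2 in 2 with a tie in 7, so this end of the order was not fixed. Tac1 had counts in 12 of 21 brain libraries, Drd2 and Adora2a in 13, Pdyn in 15, Drd1, Penk and Pde10a in 18 and Rgs9 in 19.

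The number of the 9 genes found in a library ran from 2 to 9. Each of the 6 libraries of 31 days held all 9, as did healthy replicates 2 and 3, and the former were also the 6 deepest libraries. The replicate 3 library of hNSCs at day 10, the shallowest, held 2, and replicate 1 of hNSCs at day 4 held 2 as well. In the former a gene would have needed 4.52 CPM to reach 3 counts, in the deepest 0.185 CPM. A 0 for a low gene therefore means less in some libraries than in others.

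**Figure D1:**
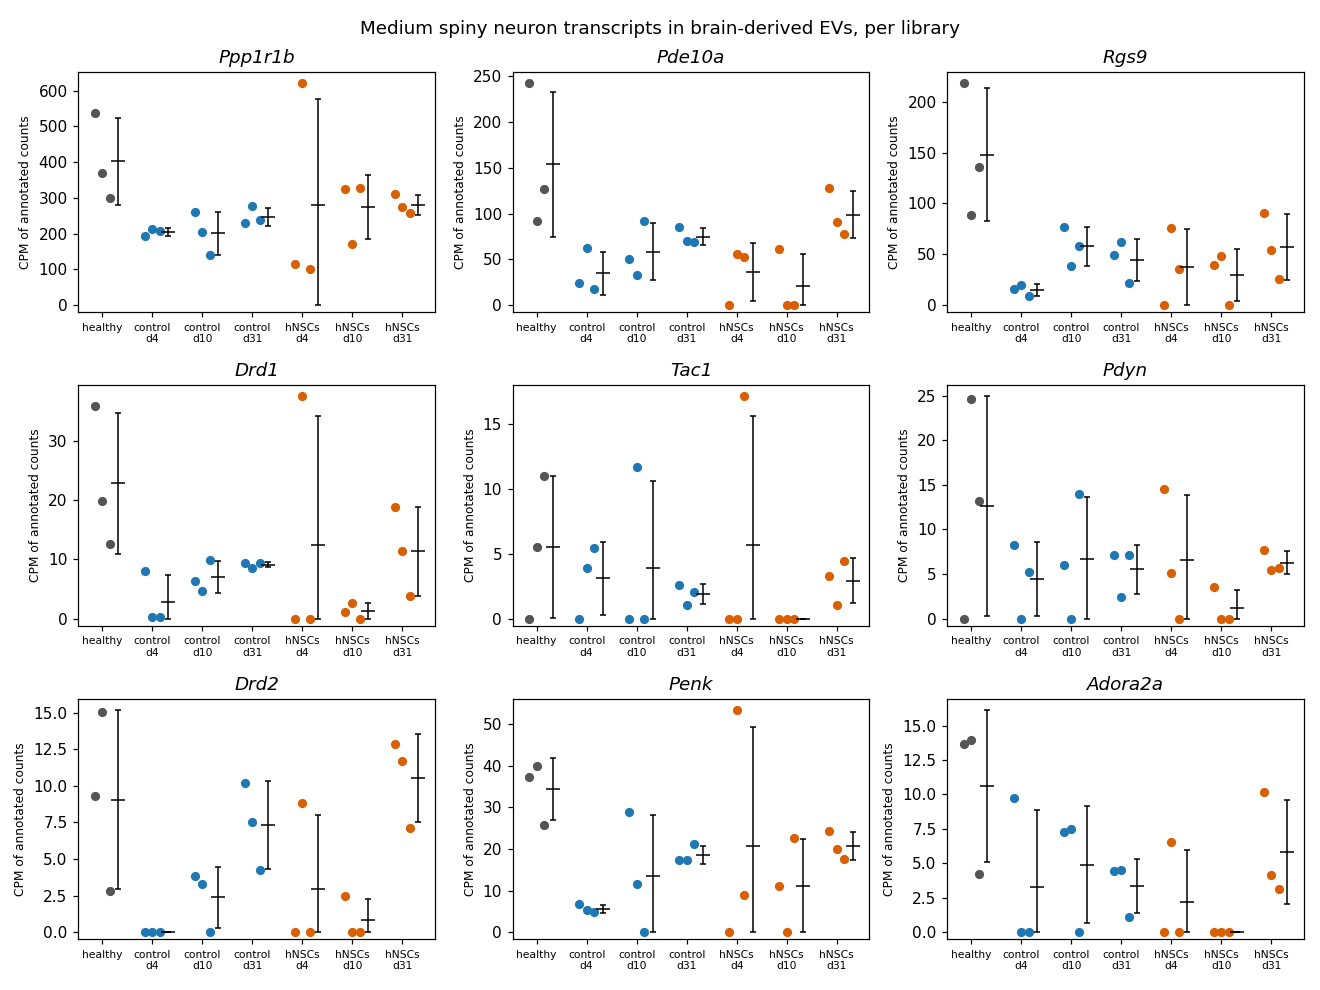
CPM of each of the 9 genes in each brain-derived EV library (points, replicates 1 to 3 from left to right) with the group mean and SD (bars, cut at 0), for the healthy group (grey), the control groups (blue) and the hNSCs groups (orange) at days 4, 10 and 31. Ppp1r1b, Rgs9 and Drd1 were lower in all 9 control libraries than in any healthy library, and replicate 2 of hNSCs at day 4 was the highest of its group for 7 genes.

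The first comparison asked how the vesicles differed after stroke, control against healthy. The fitted change of all 9 genes was below 0 at each of the 3 days on the count scale, but the 3 comparisons share their healthy libraries, and no gene passed the test. The median log2 change of the 9 genes was −2.16 at day 4, −1.34 at day 10 and −1.20 at day 31, against 0.05, 0.00 and 0.24 over the 14515 genes tested. Beside these counts of 0 by edgeR (adjusted p under 0.05 and over 1.5-fold), 0.861% of all genes were called at day 4, 0.572% at day 10 and 0.00689% at day 31. At an unadjusted p under 0.05, 3, 1 and 0 of the 9 were lower, where 14.8%, 12.7% and 7.14% of all genes passed in either direction. DESeq2 called 2 at day 4, Drd2 and Rgs9, and 0 at the later days, against 6.16%, 4.44% and 1.25% of all genes. With limma on log2(FPKM + 1) there were 0, 0 and 3, against 1.75%, 0% and 57% of all genes. The last 3, Ppp1r1b, Pde10a and Penk, were higher and not lower in control, and their share of the 9 was below that of all genes. In bulk vesicles, fewer medium spiny neurons, fewer vesicles from each and less RNA per vesicle cannot be told apart.

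Among the genes of both pathways, Rgs9 showed the widest gap at day 4. It stood at 218, 89.0 and 136 CPM in healthy libraries and at 16.3, 19.7 and 8.66 CPM in control libraries, groups that did not overlap. The log2 change was −3.31 (SE 1.07, 95% interval −5.53 to −1.09), with an edgeR adjusted p = 0.137. DESeq2 gave an adjusted p = 0.0217 and edgeR on the 6 libraries of these groups alone, which called 4.3% of all genes, 0.0053, within a range of 0.0053 to 0.376 over the 16 alternatives. At day 10 the control libraries held 76.7, 38.2 and 57.9 CPM and at day 31 49.3, 61.5 and 21.3 CPM, again below every healthy library. The log2 changes at these days were −1.36 (SE 1.00) and −1.74 (SE 1.01), with edgeR adjusted p = 0.698 and 0.918.

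Ppp1r1b held 537, 370 and 301 CPM in healthy libraries and 192, 214 and 208 CPM in control libraries at day 4. At day 10 it held 260 (replicate 1), 206 and 139 CPM, and at day 31 229, 276 and 237 CPM. All 9 control libraries lay below the lowest healthy one, and the log2 change was −0.98 (SE 0.47, edgeR adjusted p = 0.328) at day 4, −0.996 (SE 0.47, adjusted p = 0.373) at day 10 and −0.70 (SE 0.46, adjusted p = 1.00) at day 31. On the FPKM scale the order was different: the healthy group had 5.40 ± 2.06 FPKM (SD, n = 3), control at day 4 5.58 ± 0.565, at day 10 3.20 ± 1.25 and at day 31 14.8 ± 5.36. Annotated genes took 7.11% to 20.9% of counts in healthy libraries and 30.3% to 43.0% in control libraries of day 31, and what part this had in the difference between the scales was not tested.

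**Figure D2:**
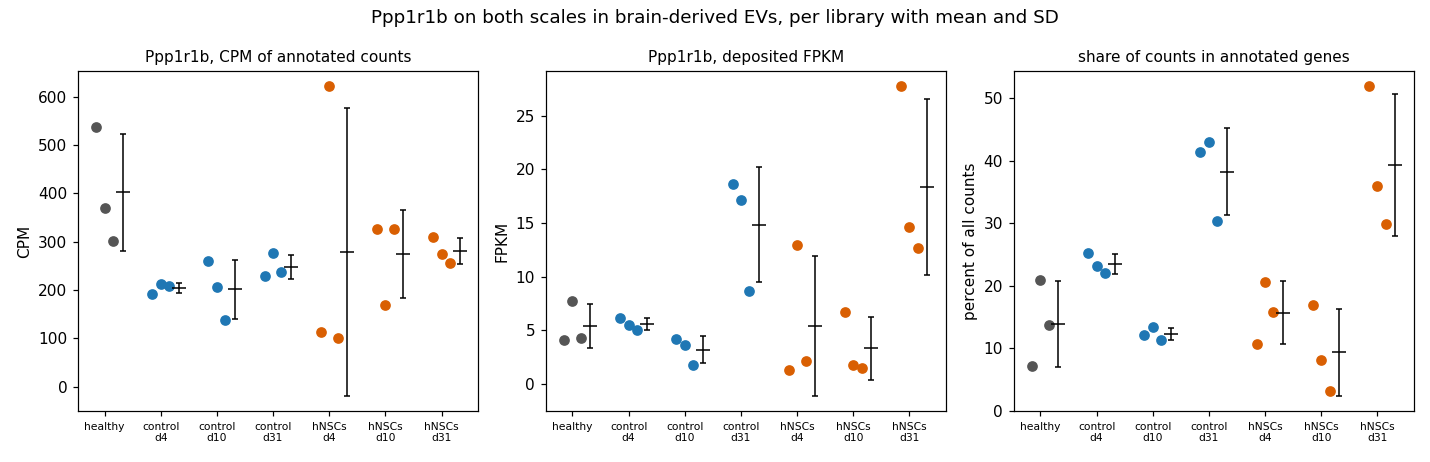
Ppp1r1b in each brain-derived EV library as CPM of annotated counts (left) and as deposited FPKM (middle), and the share of all counts that fell on annotated genes (right, percent), with group means and SD. By CPM the healthy libraries (301 to 537) are above all control libraries, and by FPKM the control libraries of day 31 (8.71 to 18.7) are above all healthy ones (4.12 to 7.77).

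Pde10a stood at 243, 91.9 and 127 CPM in healthy libraries, at 23.6, 61.9 and 18.0 CPM in control libraries of day 4 and at 85.8, 69.8 and 68.6 CPM at day 31. Both control groups lay below the healthy one, while the day 10 libraries reached 92.5 CPM and overlapped it. The log2 change was −2.16 (SE 1.11, edgeR adjusted p = 0.388) at day 4, and edgeR on the 6 libraries alone gave an adjusted p = 0.0446. At day 31 it was −1.04 (SE 1.07), while in FPKM control of day 31 was higher, with 2.38 ± 1.16 against 0.965 ± 0.0344 FPKM (SD, n = 3).

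Of the direct pathway, Drd1, the receptor that raises cAMP, had 35.9, 19.9 and 12.7 CPM in healthy libraries. It had 8.05, 0.298 and 0.217 CPM in control libraries of day 4, the last 2 of which rest on 1 count each. It then had 6.39, 4.66 and 9.98 CPM at day 10 and 9.31, 8.58 and 9.46 CPM at day 31, and no control library reached a healthy one. The log2 changes were −2.97 (SE 1.78), −1.70 (SE 1.71) and −1.32 (SE 1.68), with edgeR adjusted p = 0.512, 0.858 and 1.00. Without control replicate 1, which holds 47 of the 49 counts of Drd1 at day 4, the change there was −6.35 (adjusted p = 0.375 in that edgeR fit). Tac1, the precursor of substance P, and Pdyn, the precursor of dynorphin, overlapped between healthy and control at each day, since the replicate 1 healthy library had 0 counts of both. The other 2 healthy libraries held 5.54 and 11.0 CPM of Tac1 and 24.6 and 13.2 CPM of Pdyn. Control at day 10 reached 11.7 CPM of Tac1 and 14.0 CPM of Pdyn, so the overlap there did not depend on replicate 1. Their log2 changes ran from −1.54 to −0.51 for Tac1 and from −1.49 to −0.94 for Pdyn, with SE of 1.90 to 2.18, so that changes of several fold in either direction lay within the intervals.

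Of the indirect pathway, Drd2, the receptor that lowers cAMP, had 9.34, 15.1 and 2.81 CPM in healthy libraries, from 13, 68 and 10 counts. It had 0 counts in all 3 control libraries of day 4, among 14096395 annotated counts. Drd2 was at least 44.3-fold lower there, a bound set at 3 counts in the 3 libraries together that covers counting error only, with an edgeR adjusted p = 0.119 and a DESeq2 adjusted p = 0.00628, and over 16 alternatives adjusted p ranged from 0.00628 to 0.643. At day 10 it had 3.84, 3.26 and 0 CPM and at day 31 10.2, 7.53 and 4.26 CPM, which overlapped the healthy libraries. Penk, the enkephalin precursor, had 37.4, 40.1 and 25.9 CPM in healthy libraries and 6.68, 5.36 and 4.76 CPM at day 4. It had 29.0, 11.7 and 0 CPM at day 10 and 17.4, 17.3 and 21.1 CPM at day 31, so that only the day 10 libraries overlapped the healthy ones. Its log2 changes were −2.61 (SE 1.48), −1.34 (SE 1.42) and −0.89 (SE 1.40), with edgeR adjusted p = 0.461, 0.877 and 1.00. Adora2a, the adenosine receptor that raises cAMP against Drd2, overlapped at each day, with 13.7, 14.0 and 4.22 CPM in healthy libraries and 9.76, 0 and 0 CPM in control libraries of day 4. Its log2 changes were −1.68 (SE 2.04), −1.10 (SE 2.02) and −1.65 (SE 2.03), with edgeR adjusted p = 0.890, 0.960 and 1.00.

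Counted over the 9 genes, control libraries lay entirely below healthy ones for 6 at day 4 (Ppp1r1b, Pde10a, Rgs9, Drd1, Drd2 and Penk), where 10.4% of all genes did so. At day 10 there were 3 (Ppp1r1b, Rgs9 and Drd1, background 7.03%) and at day 31 5 (Ppp1r1b, Pde10a, Rgs9, Drd1 and Penk, background 6.39%), and 0 lay entirely above. Over all 9 control libraries against the 3 healthy ones, 3 of the 9 did so, Ppp1r1b, Rgs9 and Drd1, against 1.52% of all genes. In that pooled comparison edgeR called 0 of the 9, against 0.186% of all genes, with 3 at an unadjusted p under 0.05 (12.3% of all genes), and DESeq2 and limma on FPKM also called 0 (4.85% and 3.16% of all genes). The pooled log2 change was −2.14 (SE 0.74, edgeR adjusted p = 0.194) for Rgs9 and −0.89 (SE 0.36, edgeR adjusted p = 0.288) for Ppp1r1b, and the fit without hNSCs libraries called Rgs9 (0.453% of all genes). On the count scale 7 to 9 of the 9 stayed below 0 at each day in every alternative. Tac1 at day 10 kept its sign in 10 of 13 of these and Drd2 at day 31 in 11 of 13. With limma on log2(FPKM + 1), 0 of the 9 were below 0 at day 31, where the median of all genes was shifted by 0.69 and 7 of the 9 lay below that median. At days 4 and 10, 8 and 9 of the 9 were below 0 on that scale, Ppp1r1b being the exception at day 4 (0.084).

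**Figure D3:**
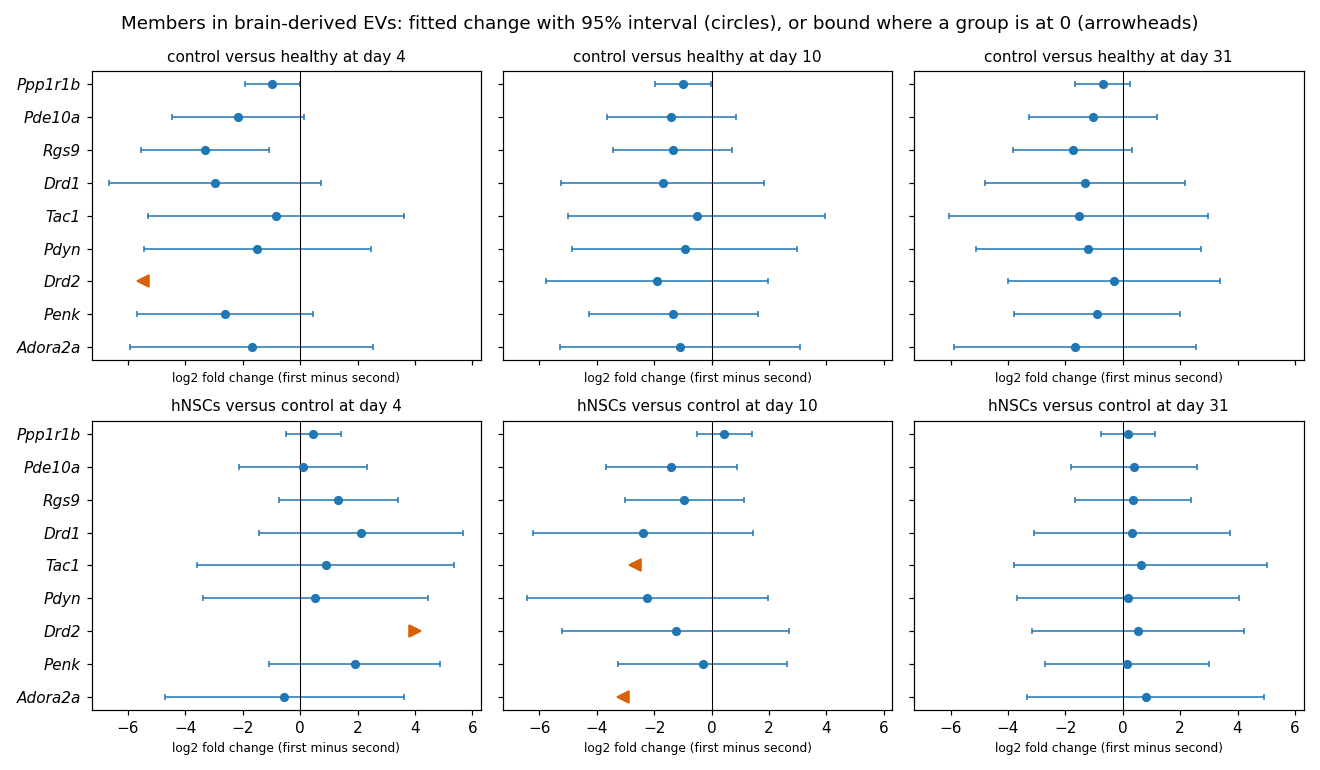
Fitted log2 fold change of each of the 9 genes with its 95% interval (circles) in brain-derived EVs, for control minus healthy (top) and hNSCs minus control (bottom) at days 4, 10 and 31. Arrowheads mark lower limits of the change where a group had 0 counts, and in the top row all points lie left of 0 with most intervals crossing it.

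Other genes of these neurons were read from lists of 44 tested genes that belong to striatal signalling, receptors, transcription factors and other striatum-enriched transcripts. These lists, like the 9 genes, were chosen with earlier results of these data known. At day 4, 38 of the 44 were below 0 (median −0.87), at day 10 35 (median −0.62) and at day 31 26 (median −0.16), against 47.0%, 48.9% and 36.9% of all genes. One of them was called, Pde1b, a calmodulin-dependent phosphodiesterase, which fell at day 4 from 203 to 85.6 CPM (log2 −1.24, SE 0.30, edgeR adjusted p = 0.0475). By list, 13 of 14 signalling genes, 9 of 10 receptors, 9 of 10 other striatum-enriched genes and 7 of 10 transcription factors were below 0 at day 4, with medians of −0.87, −1.25, −0.90 and −0.17. The transcription factors thus stood nearest to the median of all genes, and at day 31 2 of 10 were below 0.

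Markers of cortical neurons and of neurons in general, which medium spiny neurons share, were mostly below 0 at day 4 as well. Of 12 markers of cortical glutamatergic neurons, 9 were below 0 (median −0.88), and all 10 general neuron markers were (median −0.79). Syp, a synaptic vesicle protein, fell from 742 to 137 CPM (log2 −2.44, SE 0.47, edgeR adjusted p = 0.0155), and Nefm, a neurofilament subunit, from 1546 to 394 CPM (log2 −1.97, SE 0.48, edgeR adjusted p = 0.0498). Markers of microglia and the astrocyte gene Gfap stood on the other side in the same libraries, while other lists did not move as one. The 6 ependymal and choroid plexus markers had a median of −0.24 at day 4 and −1.02 at day 10, and the 8 oligodendrocyte and 8 vascular markers medians of 0.17 and 0.93 at day 4. All 10 microglia and macrophage markers were above 0 at each day (medians 2.73, 3.02 and 1.84), and their summed level was 73.3 to 105 CPM in healthy libraries and 569 to 1278 CPM in control libraries of day 4. C1qc and C1qb, subunits of complement C1q, were called at day 4 (log2 5.71, SE 0.96, and 4.22, SE 0.93; edgeR adjusted p = 0.0112 and 0.0281), as were they, C1qa and the receptor Csf1r at day 10. Gfap, the astrocyte filament, rose at each day, from 590 to 2797 CPM at day 4 (log2 2.25, SE 0.36, edgeR adjusted p = 0.011). It was the only astrocyte marker called in a brain comparison, and the other astrocyte markers are not described here. The 4 markers of midbrain dopamine neurons summed to 0 to 12.9 CPM in healthy libraries, to 0 in every control library of day 4 and to 18.1 to 26.9 CPM in those of day 31. The part of other cell types and of the piece of tissue taken in the lower levels of the 9 genes was not tested.

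**Figure D4:**
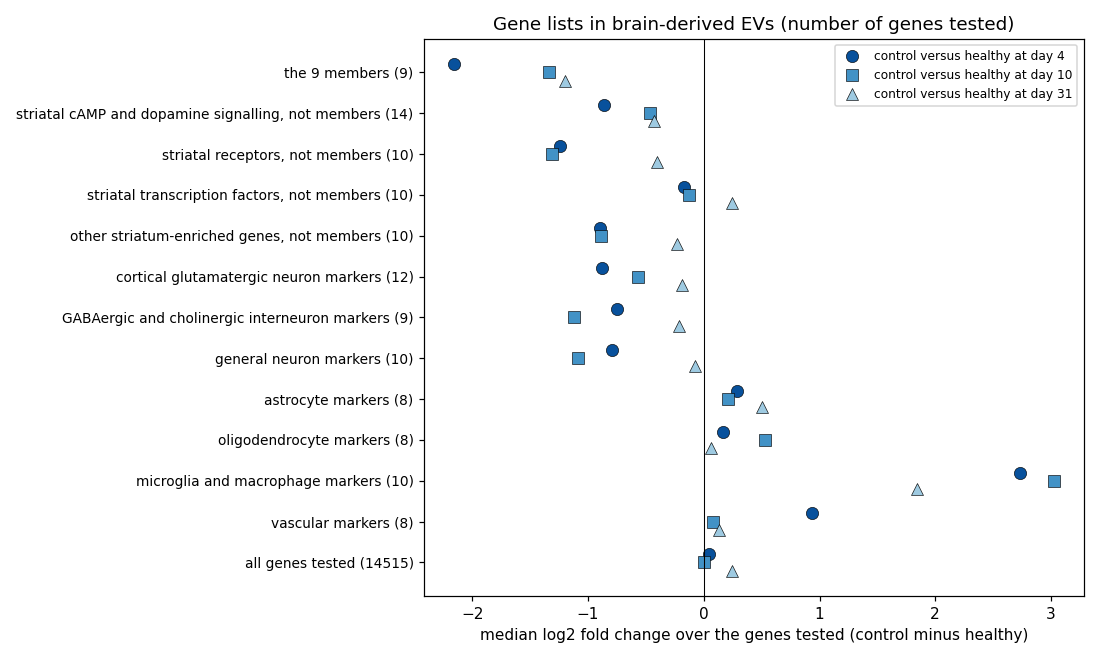
Median log2 fold change (control minus healthy) of each gene list in brain-derived EVs at day 4 (circles), day 10 (squares) and day 31 (triangles), with the number of genes tested in parentheses. The 9 genes have medians of −2.16, −1.34 and −1.20, and the microglia and macrophage markers stand at the other end with 2.73, 3.02 and 1.84.

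Within the control rats, day 31 was set against day 4. All control libraries of day 31 lay above those of day 4 for 6 of the 9 genes, Ppp1r1b, Pde10a, Rgs9, Drd1, Drd2 and Penk, where 19.1% of all genes did so. For Rgs9 the means were 44.0 ± 20.6 and 14.9 ± 5.63 CPM (SD, n = 3; log2 1.57, SE 1.01, edgeR adjusted p = 0.886) and for Penk 18.6 ± 2.17 and 5.60 ± 0.981 CPM (log2 1.73, SE 1.44, edgeR adjusted p = 1.00). Drd2 had 0 counts at day 4 and 250 at day 31 over 3 libraries, at least 38.2-fold higher by counting error, with an edgeR adjusted p = 0.274. edgeR called 0 of the 9, against 0.248% of all genes, with 1 at an unadjusted p under 0.05 (9.5% of all genes). DESeq2 called Drd2 (1.7% of all genes), as did edgeR on these 6 libraries alone (6.34%). Limma on log2(FPKM + 1) called Pde10a, Rgs9 and Penk, where it called 28.1% of all genes. On that FPKM scale the median of all genes was shifted by 0.42, against a median of 0.38 for the 9 genes, and 5 of the 9 lay below that of all genes. Tac1 was the gene with the opposite sign by counts (log2 −0.69, SE 2.14). General neuron markers summed to 3266 to 5994 CPM at day 4 and 6975 to 10026 CPM at day 31, and Syp was called higher (log2 2.29, SE 0.47, edgeR adjusted p = 0.035). Mbp of myelin and Col4a1 of the vessel wall were called lower.

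The second question was whether hNSCs changed these transcripts against control rats of the same day. edgeR called 0 of the 9 at days 4, 10 and 31 and over the 3 days, and 0% of all genes in each. At an unadjusted p under 0.05 there were 1, 1, 0 and 0, against 7.53%, 13.4%, 0.0896% and 7.68% of all genes. DESeq2 called 0 in all 4, against 1.53%, 4.91%, 0% and 2.38% of all genes, and limma on FPKM 0 and 0% of all genes. At day 4 the hNSCs libraries differed widely among themselves. Ppp1r1b stood at 114, 622 and 101 CPM, Penk at 0, 53.5 and 8.85 CPM, Drd1 at 0, 37.5 and 0 CPM and Rgs9 at 0, 75.7 and 35.7 CPM. Replicate 2 was the highest of the 3 for 7 of the 9 genes, all but Tac1 and Pdyn, and replicate 1 lacked 7 of them at 1847441 annotated counts. Every gene overlapped with control, where 6.82% of all genes were entirely lower and 2.62% entirely higher. The fitted log2 change of Ppp1r1b was 0.45 (SE 0.46, 95% interval −0.51 to 1.41), but −0.94 without replicate 2 of hNSCs and −0.51 on log2(FPKM + 1). That of Penk was 1.89 (SE 1.44), and −0.32 without that library. Rgs9 had a log2 change of 1.33 (SE 1.01, 95% interval −0.75 to 3.41), and of 0.28 without it. Drd2, with 31 counts in replicate 2 against 0 in control, was at least 16.1-fold higher by counting error, and this rests on that library.

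At day 10 the hNSCs libraries held 2955945, 1123445 and 569136 annotated counts, replicates 2 and 3 being the shallowest of the 21. Drd1 had 1.07, 2.66 and 0 CPM, below all 3 control libraries (7.06% of all genes were), with a log2 change of −2.40 (SE 1.85, edgeR adjusted p = 0.627). These values rest on 3, 3 and 0 counts. In replicate 3, 3 counts would have needed 4.52 CPM, close to the 4.66 CPM of the lowest control library. Pde10a had 61.1, 0 and 0 CPM against 50.3, 32.6 and 92.5 CPM in control. The 2 libraries without Pde10a would have shown 3 counts from 2.66 and 4.52 CPM on. Without replicate 1 all remaining hNSCs libraries are at 0 and Pde10a was called (edgeR adjusted p = 0.0116), against 0.638 with it. The share of all genes called in that fit is not given, so the call cannot be set against it. Adora2a and Tac1 had 0 counts in all 3 hNSCs libraries, at least 8.45-fold and 6.40-fold lower than in control by counting error, with edgeR adjusted p = 0.348 and 0.385. The bound of Tac1 rests on replicate 2 of control (25 counts), since replicates 1 and 3 had 0 counts. Replicate 3 of control also had 0 counts of Adora2a. In all, 8 of the 9 were below 0 and 7 below the median of all genes, which was shifted to −0.34 here. Ppp1r1b, the most deeply counted of the 9, was the exception by counts, with 326, 169 and 327 CPM against 260, 206 and 139 CPM (log2 0.44, SE 0.47, 95% interval −0.52 to 1.41), but not on log2(FPKM + 1), where it stood at −0.097.

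At day 31, where the libraries were deepest, all 9 genes overlapped between hNSCs and control. Ppp1r1b stood at 311, 274 and 257 CPM against 229, 276 and 237 CPM, with a log2 change of 0.18 (95% interval −0.77 to 1.13). All 9 fitted changes lay between 0.15 and 0.79, and 2.67% of all genes were entirely lower than in control and 3.29% entirely higher. Replicate 1 of hNSCs was the highest of its group for 8 of the 9. Over the 3 days together the log2 change of Ppp1r1b was 0.36 (SE 0.27, 95% interval −0.19 to 0.91), with −0.09 without replicate 2 of hNSCs at day 4 and −0.11 on log2(FPKM + 1). It was −0.30 for Pde10a (SE 0.62, 95% interval −1.58 to 0.98) and 0.25 for Rgs9 (SE 0.57, 95% interval −0.93 to 1.43). A 2-fold change in either direction lay outside the interval of Ppp1r1b, while for each of the other 8 genes a 2-fold change in at least 1 direction lay within it. Whether the difference between hNSCs and control changed with time was tested as an interaction, between days 4 and 10, 4 and 31, and 10 and 31. edgeR called 0 of the 9 and 0% of all genes in each, with 1 at an unadjusted p under 0.05 in each (Drd2, Drd2 and Adora2a, each with a group at 0), against 8.63%, 4.23% and 6.23% of all genes. DESeq2 called 0 as well, against 2.91%, 0.738% and 1.56% of all genes, and limma on FPKM 0 and 0% of all genes.

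The 36 pairs of the 9 genes were compared over the 21 brain libraries by the correlation of their log2 CPM, as a description, since all points share the depth and composition of their library. The median Pearson r was 0.41 (Spearman rho 0.48), and 33 of 36 were above 0, against a median of 0.23 (rho 0.13) over the 130554 pairs of one of the 9 with another gene. With group means taken off, the medians were 0.24 (rho 0.28) and 0.14 (rho 0.10). The highest were Drd1 with Adora2a (r = 0.82, rho = 0.73), Pde10a with Rgs9 (r = 0.78, rho = 0.74) and Drd2 with Adora2a (r = 0.78, rho = 0.73). The 3 pairs within the indirect pathway were all high, with Drd2 and Penk at r = 0.72 (rho = 0.74) and Penk and Adora2a at r = 0.66 (rho = 0.68). Those within the direct pathway were not, and Drd1 went with Adora2a and Drd2 (r = 0.75, rho = 0.76) more than with Pdyn (r = 0.37, rho = 0.36) or Tac1 (r = −0.09, rho = −0.04). Tac1 was in each of the 3 pairs below 0. The 5 genes most like the mean standardized log2 CPM of the 9 were Tst (r = 0.87, rho = 0.74), Kcnh5 (r = 0.86, rho = 0.86), Bet1l (r = 0.86, rho = 0.75), Kcnh4 (r = 0.86, rho = 0.75) and Mmaa (r = 0.86, rho = 0.78), all between 8.79 and 20.5 CPM on average. Kcnh4 and Kcnh5 are voltage-gated potassium channels.

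Pde10a and Rgs9 were the pair of shared signalling genes that ran together most closely, so their proximal promoters are shown. The RefSeq table for build GRCr8 held 6 of the 9 genes. The 120 bases before each start, 5′ to 3′ on the gene's own minus strand, are chr1:54765669-54765788 for Pde10a and chr10:94770388-94770507 for Rgs9. Capitals mark the core of the cAMP response element, TGACG or its complement CGTCA.
Pde10a: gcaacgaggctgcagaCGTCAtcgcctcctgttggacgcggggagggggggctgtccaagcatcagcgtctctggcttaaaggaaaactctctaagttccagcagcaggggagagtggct
Rgs9: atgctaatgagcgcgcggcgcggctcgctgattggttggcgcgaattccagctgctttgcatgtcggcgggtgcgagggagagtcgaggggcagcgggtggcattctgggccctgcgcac
In the 250 bases before the start, Pde10a had 2 such cores and Tac1 1, while Rgs9, Drd1, Pdyn and Drd2 had 0. Of 33469 promoters of this length, 18.2% held a core and 1.59% the full element TGACGTCA, in which both cores overlap and which 0 of the 6 held. A match describes these letters and not a bound factor.

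The last comparison set brain against plasma of the same rat. Its pooled CPM, the bounds from them and the counts of rats used annotated totals without TMM scaling. Ppp1r1b was higher in brain in 21 of 21 rats, at 269.8 CPM over the pooled brain libraries and 0.977 CPM over the pooled plasma libraries (edgeR with the rat as a block, adjusted p = 4.79e-11). Plasma counts of Ppp1r1b came from 3 libraries, 2 of control day 4 and 1 of control day 10. Pde10a was higher in brain in 18 of 21 rats (79.6 and 0.413 CPM pooled, adjusted p = 1.22e-07 in that edgeR fit), and it had plasma counts in 3 libraries. Ppp1r1b and Pde10a passed the filter through brain, where they are high, so their p-values are not read as support. Rgs9, Drd2, Pdyn and Tac1 had 0 counts in all 21 plasma libraries, among 452574002 annotated counts, so that brain was at least 8367-fold, 1102-fold, 1022-fold and 494-fold higher by counting error. Drd1 had 20 counts in plasma, in 2 libraries of hNSCs at day 4.

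Adora2a went against the other genes and was higher in plasma in 19 of 21 rats. It had counts in all 21 plasma libraries, with a median of 0.678 FPKM against 0.0336 FPKM in brain, and the log2 difference of brain minus plasma was −3.34 (SE 0.89, edgeR adjusted p = 0.00232). Adora2a is not confined to neurons and is known from leukocytes and platelets. Penk had counts in 12 plasma and 18 brain libraries and was not called (log2 3.42, SE 1.58, edgeR adjusted p = 0.0667), but was called without the rat as a block, without TMM and by DESeq2, which did not call Pde10a and called 70.8% of all genes. Of the 5 genes that passed the filter in this comparison 4 were called, Rgs9 included, against 58.1% of all genes. Rgs9, with 0 counts in plasma, passed the filter through brain alone, and so did Ppp1r1b and Pde10a, which had plasma counts in 3 libraries each. The 4 calls do not share a direction, since Adora2a was higher in plasma. The share called is therefore not read as a result about the 9 genes.

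**Figure D5:**
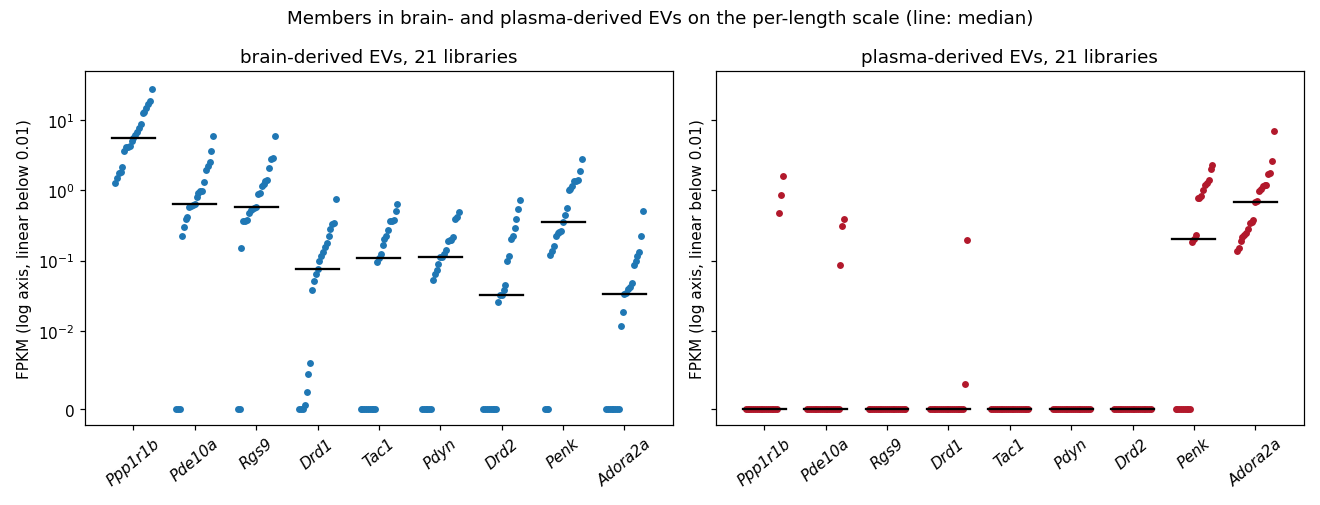
FPKM of the 9 genes in the 21 brain-derived (left) and 21 plasma-derived (right) EV libraries, sorted within each gene, on a log axis that is linear below 0.01, with the median as a line. Adora2a is the gene with counts in every plasma library, and Drd2, Tac1, Pdyn and Rgs9 are at 0 in all of them.

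In plasma 4 of the 9, Adora2a, Penk, Ppp1r1b and Pde10a, passed the filter, and edgeR called 0 of them in any comparison of groups. The share of all genes called was 0.0679% for control against healthy at day 4, 0% at days 10 and 31 and over the 3 days, 0.00679% for hNSCs against control at day 4, 0% at days 10 and 31 and over the 3 days, and 0.17% for control day 31 against day 4. None of the 4 had an unadjusted p under 0.05. Limma on FPKM called 0, and the share of all genes called in that fit is not given, so this count cannot be set against it. DESeq2 called 1 or 2 in each of the 9 comparisons, each time Ppp1r1b or Pde10a, which have counts in 3 of 21 plasma libraries each. The share of all genes that DESeq2 called was 6.47%, 8.66% and 4.7% for control against healthy at days 4, 10 and 31 and 6.46% over the 3 days. For hNSCs against control it was 6.23%, 8.15%, 11.9% and 9.96%, and for control day 31 against day 4 6.77%. Adora2a stood at 4.28, 30.5 and 31.98 CPM in healthy plasma and at 66.6, 6.69 and 17.3 CPM in control plasma of day 4, which overlapped. Its log2 change was 0.44 (SE 1.17) at day 4, −1.70 (SE 1.20) at day 10 and −1.23 (SE 1.19) at day 31, with edgeR adjusted p = 1.00, 0.857 and 1.00. Penk in hNSCs plasma of day 10 was even, at 5.03, 5.20 and 5.24 CPM, against 0, 9.27 and 0 CPM in control (log2 0.74, SE 3.30, edgeR adjusted p = 1.00).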

How the data were processed

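EV mRNA libraries of brain and plasma from 21 rats were grouped by the sample labels. The authors aligned reads with Bowtie2 to Rnor_6.0 and deposited whole-number counts per gene without normalization, with no UMIs. Tool versions, the counting method and the strand setting are not given in the sources used here. The authors also deposited FPKM values from StringTie, summed over the transcripts of a gene. The extraction text of the labels names serum where plasma is used here.

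Rows of new genes without annotation were left out. Counts were tested in 1 model of the 7 groups per tissue with edgeR 4.0.16 (R 4.3.3), TMM and filterByExpr, with quasi-likelihood tests and Benjamini-Hochberg adjustment over all genes tested. A gene was called at an adjusted p under 0.05 and over 1.5-fold. All 9 genes passed the filter in brain, 4 in plasma and 5 in brain against plasma. Where a group had 0 counts, the fold is a bound against 3 counts over that group, and the fitted fold is not given. Results were recomputed using limma-trend (limma 3.58.1) for FPKM, logged with a pseudocount of 1 or 0.1, DESeq2 1.42.0, median-of-ratios scaling, no filter, new genes kept, the annotated share as a covariate, the replicate number as a block, the compared groups alone, hemoglobin genes left out in plasma, and each library left out. p-values measure the spread between rats, which with the rat as a block is that of the difference between tissues within a rat. Counting bounds cover counting error only.

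Named beside the 9 genes are up to 4 genes per list called in a brain comparison, by lowest adjusted p, and the 5 genes most like the mean of the 9. The 9 genes and the lists were chosen with earlier results of these data known. Of 132 listed genes besides, Gpr6 and Ido1 had no row. miRNA tables were not used here.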

Additional observations from a re-analysis of the deposited data

Results flagged for a closer look

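Over the 9 libraries of an arm, which mix 3 days, 7 of 22 sets of CPM values had a library set apart from the others by a gap that is large for its range. For 1 normal population about 1 in 20 sets would be picked, a rate that need not hold for these CPM values, which are skewed, hold zeros, mix days and share libraries. In brain, replicate 2 of hNSCs at day 4 stood apart for Ppp1r1b (622 CPM, the next library at 327), Drd1 (37.5 CPM, next 18.9) and Penk (53.5 CPM, next 24.3). Tac1 was set apart in replicate 3 of hNSCs at day 4 (17.1 CPM, next 4.48) and in replicate 2 of control at day 10 (11.7 CPM, next 5.41). In plasma, Adora2a was set apart in replicate 1 of control at day 4 (66.6 CPM, next 18.4) and Penk in replicate 1 of hNSCs at day 4 (15.5 CPM, next 6.87).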

How the results depend on the processing

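Calls of the 9 genes moved as follows. With DESeq2 there were 2 at day 4 against healthy, 1 at day 31 against day 4, and in plasma 1 (2 for hNSCs at day 10 and for day 31 against day 4). With the compared groups alone there were 2 at day 4 (Rgs9 and Pde10a), 1 over the 3 days (Rgs9) and 1 at day 31 against day 4 (Drd2). With limma on log2(FPKM + 1) there were 3 at day 31 against healthy and 3 at day 31 against day 4, with a pseudocount of 0.1 1 and 3, and without a filter 1 and 3. The log2(FPKM + 1) fit with the filter called 57% and 28.1% of all genes in these comparisons. The shares of the other FPKM fits are not given, so their counts cannot be set against all genes. On these FPKM scales 0 of the 9 were below 0 at day 31. Leaving out each library gave 0 to 1 calls for hNSCs at day 10 and for its differences from days 4 and 31, the call being Pde10a without replicate 1 of hNSCs at day 10, and 8 to 9 genes below 0 at each of the 3 days against healthy. The shares of all genes called in the fits that left out a library are not given. The direction turned on log2(FPKM + 1), with or without a filter, and on log2(FPKM + 0.1): Ppp1r1b to 0.084 and 0.11 at day 4, 1.29 and 1.43 at day 31, and 0.25 and 0.26 over the 3 days, and at day 31 Rgs9 to 0.29 and 0.32, Drd1 to 0.14 and 0.60 and the median of the 9 to 0.25 and 0.60, where the median of all genes was shifted by 0.69 and 1.74. The cause was not tested. With the annotated share as a covariate the median of the 9 was −3.94 at day 4, −1.62 at day 10 and −3.67 at day 31, and Rgs9 stood at −4.25 at day 31, with 0 calls. The replicate number as a block gave 0 calls in each comparison of groups and 7 genes below 0 at day 31, and it does not pair the rats: of 63 pairs of same-numbered brain libraries, 7 had deviations correlated above 0.1 (median r = −0.003). Depth limits the low genes most, since 1 count stood for 0.0612 to 1.51 CPM in brain.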
